A study of Homo sapiens with 2 samples.

Results

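The 7 pluripotency genes SOX2, SOX3, UTF1, DPPA2, PRDM14, TERT and PODXL were taken by symbol from the authors' deposited table of 2005 genes. All 7 had a row there. They were chosen by their FPKM levels and log2 ratios in this table, which were lower after TFCP2L1 was targeted, so their direction is how they were chosen and is described here without a test. The cells were HES2, a human embryonic stem cell line. The scramble group was infected with a scramble lentivirus and the knockdown group with a lentivirus carrying a short hairpin RNA (shRNA) against Tfcp2l1. Both were grown for 3 passages in basal medium with 10% KSR plus FGF2 and Activin A, each at 10 ng/ml. Each group had 1 library, so no difference below has a replicate check.

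Human embryonic stem cells in FGF2 and Activin A are held in a primed state, which resembles the epiblast shortly before gastrulation. SOX2 works with POU5F1 (OCT4) and NANOG as the core of the network that keeps these cells pluripotent, and genes such as UTF1, DPPA2 and PRDM14 act around that core on chromatin and transcription. TERT and PODXL are widely used marks of undifferentiated cells, the first for telomere upkeep and the second at the cell surface. TFCP2L1, the gene targeted, is a CP2-family transcription factor best known from the naive state of mouse embryonic stem cells.

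Sequences are shown first for the genes at both ends of the order of ratios: UTF1 and DPPA2, which kept the least of their scramble level, and SOX2, which kept the most. They are RefSeq promoter windows on GRCh38.p14, from 250 bases before to 50 bases after the annotated start, 5′ to 3′ on the gene's strand. Capitals mark a GC box (GGGCGG, either strand) or the 7 bases ATGCAAA of an octamer, the kind of site that POU factors bind. The UTF1 window is chr10:133229967-133230266 on the plus strand, the DPPA2 window chr3:109316468-109316767 on the minus strand and the SOX2 window chr3:181711675-181711974 on the plus strand.
UTF1: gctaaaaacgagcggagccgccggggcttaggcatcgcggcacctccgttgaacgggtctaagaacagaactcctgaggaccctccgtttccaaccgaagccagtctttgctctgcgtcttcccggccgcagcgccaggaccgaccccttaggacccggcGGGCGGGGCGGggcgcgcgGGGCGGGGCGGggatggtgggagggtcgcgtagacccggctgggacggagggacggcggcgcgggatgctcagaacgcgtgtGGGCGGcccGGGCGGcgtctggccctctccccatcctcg
DPPA2: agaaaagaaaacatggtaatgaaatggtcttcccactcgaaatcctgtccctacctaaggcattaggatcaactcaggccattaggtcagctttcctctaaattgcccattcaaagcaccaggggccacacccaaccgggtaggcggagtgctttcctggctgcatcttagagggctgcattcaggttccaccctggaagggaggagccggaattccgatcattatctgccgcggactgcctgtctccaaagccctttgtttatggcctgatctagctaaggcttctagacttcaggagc
SOX2: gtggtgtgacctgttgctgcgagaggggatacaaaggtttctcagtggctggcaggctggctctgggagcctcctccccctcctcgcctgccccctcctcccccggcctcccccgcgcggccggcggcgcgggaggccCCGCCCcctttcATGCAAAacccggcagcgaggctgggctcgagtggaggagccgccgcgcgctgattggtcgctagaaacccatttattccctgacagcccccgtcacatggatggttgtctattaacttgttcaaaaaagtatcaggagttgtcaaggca

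The UTF1 window holds 6 GC boxes, the SOX2 window 1 and the DPPA2 window 0. Of 27305 promoter windows of the same length, 44.6% hold at least 1. The ATGCAAA of SOX2 starts 100 bases before the annotated start. These 7 bases are in 4.51% of all windows, and they were added to the search after the sequences had been seen. The full octamer ATGCAAAT is in 1.80% of all windows and in none of the 5 windows that could be matched to these genes (SOX2, SOX3, UTF1, DPPA2 and TERT). ACAAT (28.0% of all windows), CATTGT (11.0%, and it contains the reverse complement of ACAAT) and the TATA box TATAAA (12.0%) were likewise in none of the 5, on either strand. The E-box CACGTG, in 7.43% of all windows, was in the TERT window alone among the 5. A repeat of CP2 half-sites, the kind of sequence that the TFCP2L1 family is known to bind, was found in 4 of the 5 windows (not in DPPA2), but it is a loose pattern that 74.5% of all windows hold. The GC content was 51.3% in the DPPA2 window, 60.3% in SOX3, 63.3% in SOX2, 71.7% in UTF1 and 77.3% in TERT, against a median of 58.3% over all windows. A window was found for 619 of the 921 genes listed as lower. Of these, 62.4% hold a GC box, 18.1% ACAAT and 88.4% the CP2 repeat, and their median GC content was 64.3%. With so many lower genes missing, a comparison with them is void. A match in these windows is a match of letters and shows no binding.

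All values come from 2 libraries of about 23450000 (scramble) and 22710000 (knockdown) reads, depths that were inferred from the deposited values. Levels are in FPKM, which scales reads by transcript length and library depth, and the lowest deposited value, 0.01, stands for values at or near 0. The deposited table holds only genes that differed by at least 2-fold with a false discovery rate of at most 0.000990. Of about 18489 genes tested, a number inferred from the p-values, 4.98% are listed as lower and 5.86% as higher. All 7 genes are among the 921 lower ones, which follows from how they were chosen. TFCP2L1 itself went from 3.19 to 0.33 FPKM, 9.7-fold lower by reads with an interval of 7.56 to 12.6-fold. Of 7 markers fixed for embryonic stem cells (POU5F1, NANOG, SOX2, LIN28A, DNMT3B, TDGF1 and PODXL), only SOX2 and PODXL have a row. Both are lower, which follows from how they were chosen and says nothing about the markers as a set. The other 5 have no row among the genes that met these limits, and their level is not known here. In bulk RNA, fewer cells that carry a transcript and less of it per cell cannot be told apart.

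SOX2, the core pluripotency factor and a member of the SOXB1 group, had a level of 180.47 FPKM with the scramble virus and 86.06 FPKM with the knockdown virus. It kept 47.7% of its scramble level. That was the mildest difference of the 7, and its level was the highest of the 7 in the knockdown library, where PODXL came next. The reads behind these values numbered about 10381 and 4794, which put the ratio at 0.478 with a 95% interval of 0.461 to 0.494. Intervals are exact (Clopper-Pearson) and cover counting error only, not the variation between cultures.

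SOX3, the X-linked SOXB1 relative of SOX2 known for its part in early neural and pituitary development, was at 24.42 and 8.82 FPKM. It kept 36.1% of its scramble level, on 1149 and 402 reads (ratio 0.362, interval 0.322 to 0.406). The interval of SOX3 lies wholly below that of SOX2. The level of SOX2 per length was 7.39 times that of SOX3 in the scramble library and 9.76 times in the knockdown library.

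The coding sequences of SOX2 and SOX3 are shown because they are alike in the HMG box, the part that binds DNA, where reads of one could be counted for the other. In the longest ungapped block of their alignment, 233 of 276 bases (84.4%) are identical, and the longest identical run is 23 bases. The first 120 bases of that block follow, from coding position 114 of SOX2 and 408 of SOX3 in GENCODE transcripts, with the 10 differing bases in capitals.
SOX2: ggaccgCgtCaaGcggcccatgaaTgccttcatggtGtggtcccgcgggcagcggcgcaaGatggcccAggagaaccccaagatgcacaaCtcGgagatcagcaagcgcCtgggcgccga
SOX3: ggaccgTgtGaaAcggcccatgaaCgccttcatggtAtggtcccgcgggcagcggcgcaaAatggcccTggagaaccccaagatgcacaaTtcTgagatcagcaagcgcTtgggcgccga

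No run of 31 identical bases joins SOX2 and SOX3 in that block. An exact run cannot tell whether reads with mismatches were counted for the wrong gene, and this was not tested. Over whole transcripts, 3.79% of the 31-base words of SOX2 and 0.19% of those of SOX3 occur in a transcript of another gene, among them other SOX genes such as SOX1. The share was 12.6% for DPPA2, mostly in its pseudogenes (DPPA2P2, DPPA2P3 and DPPA2P4), 2.38% for PRDM14, 1.40% for PODXL, and 0 for UTF1 and TERT. The gene model of SOX2 also lies inside SOX2-OT on the same strand, a long noncoding RNA with no row in the table, and whether its reads were counted for SOX2 was not tested.

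UTF1, DPPA2 and PRDM14 encode nuclear proteins that act with chromatin or on transcription. UTF1, a chromatin-associated factor of undifferentiated cells, was at 88.68 and 14.83 FPKM. It kept 16.7% of its scramble level, on about 2267 and 367 reads (ratio 0.167, interval 0.150 to 0.187). This was the lowest ratio of the 7, and UTF1 passed from a level above that of PRDM14 to one below it.

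DPPA2, a SAP-domain protein that works with DPPA4 at the promoters of developmental genes, was at 18.81 and 5.59 FPKM, or 29.7% of the scramble level. Its 578 and 166 reads gave a ratio of 0.297 with an interval of 0.248 to 0.354. PRDM14, a zinc finger repressor needed for the upkeep of human embryonic stem cells and for germ cell development, was at 42.36 and 18.30 FPKM, or 43.2%. Its 2261 and 946 reads gave a ratio of 0.433 (interval 0.401 to 0.467). The intervals of DPPA2 and PRDM14 do not overlap.

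TERT, the catalytic subunit of telomerase, had the lowest level of the 7 in both libraries, 8.39 and 3.09 FPKM. It kept 36.8% of its scramble level, on about 762 and 272 reads (ratio 0.369, interval 0.320 to 0.425). PODXL, a sialomucin of the cell surface that carries the TRA-1-60 and TRA-1-81 epitopes used to recognise human pluripotent cells, had the highest scramble level, 221.98 FPKM, against 79.09 FPKM after knockdown. It kept 35.6%, on about 30477 and 10517 reads (ratio 0.357, interval 0.349 to 0.365). PODXL thus passed below SOX2 in the knockdown library. TERT and PODXL kept nearly the same share from levels far apart, and their intervals overlap.

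**Figure D1:**
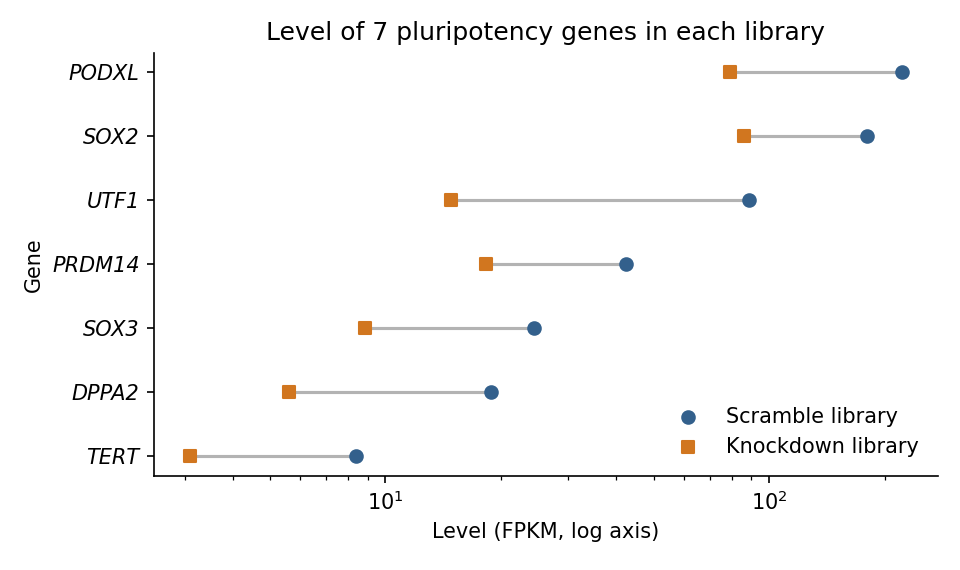
Level of each of the 7 genes (FPKM, log axis) in the scramble library (blue circles) and the knockdown library (orange squares), with genes ordered by scramble level and 1 library per point. Every square lies to the left of its circle, and the longest line is that of UTF1, from 88.68 to 14.83 FPKM.

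The authors' deposited table gives log2 ratios of -2.58 for UTF1, -1.75 for DPPA2, -1.49 for PODXL, -1.47 for SOX3, -1.44 for TERT, -1.21 for PRDM14 and -1.07 for SOX2. Its false discovery rates are 3.96e-50 for DPPA2, 1.83e-50 for TERT, 1.11e-76 for SOX3 and 1.04e-111 for PRDM14, and it prints 0 for UTF1, PODXL and SOX2. These deposited rates compare 2 libraries and carry no information on how cultures of 1 group vary. With 1 library per group, the conditions were not tested.

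The order of the ratios was UTF1, DPPA2, PODXL, SOX3, TERT, PRDM14 and SOX2, from the lowest share kept to the highest. Of the 21 pairs of genes, 12 had 95% intervals apart, and the same number were apart with 99% intervals. UTF1 was apart from each of the other 6 genes, with ratios 1.77 times as high for DPPA2 and 2.85 times as high for SOX2. DPPA2 overlapped PODXL, SOX3 and TERT, and these 3 overlapped each other, at 35.6% to 36.8% of the scramble level. PRDM14 overlapped SOX3, TERT and SOX2. SOX2 was apart from every gene but PRDM14. Scramble levels spanned 26.5-fold over the 7 genes, while the ratios spanned 2.85-fold. The authors' 2-fold limit caps the ratios of lower genes and not their levels, so these spans cannot be set against each other.

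**Figure D2:**
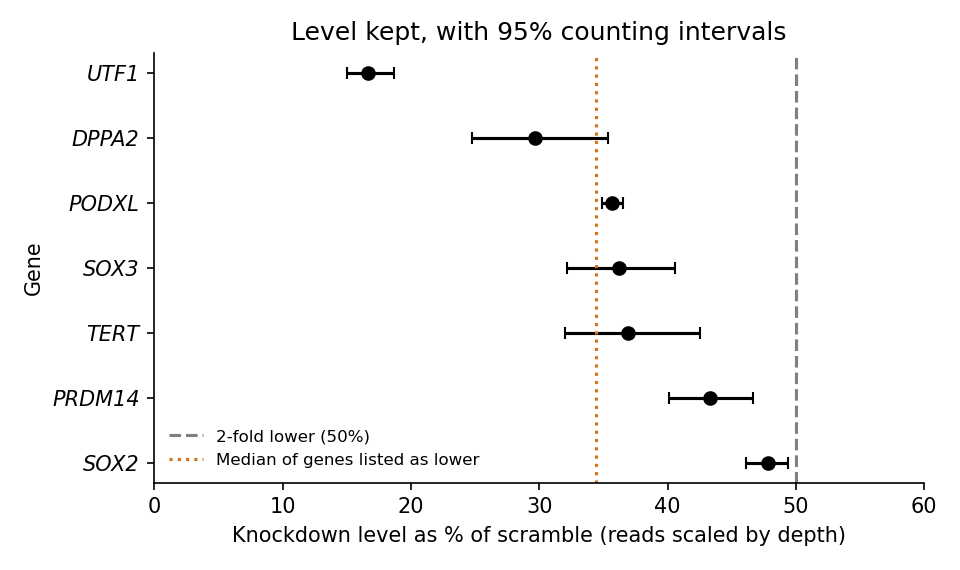
Knockdown level as a percent of the scramble level for each gene, from reads scaled by depth (points), with exact 95% intervals of counting error (bars). The dashed line marks 2-fold lower and the dotted line the median of all genes listed as lower, 34.4%; UTF1 is the one gene whose interval lies wholly below the dotted line.

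The 7 genes were then placed among all genes listed as lower, as a description, since level and ratio both belong to the contrast that chose them. Their median deposited log2 ratio was -1.47, against -1.54 over the 921 lower genes. The median levels of lower genes were 2.91 FPKM (scramble) and 0.93 FPKM (knockdown), and each of the 7 was above both values. By level in the scramble library PODXL ranked 6, SOX2 7 and UTF1 11 of 921, PRDM14 37, SOX3 70, DPPA2 94 and TERT 203. By FPKM lost between the libraries, PODXL ranked 6 with 143 FPKM, SOX2 8 with 94.4 FPKM and UTF1 10 with 73.9 FPKM, while TERT lost 5.30 FPKM. Together the 7 genes, 0.760% of the lower genes, held 6.47% of the FPKM lost over all of them. Their summed level was 585.1 FPKM with the scramble virus, 68.8% of it from SOX2 and PODXL, and 215.8 FPKM after knockdown.

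Among all 921 lower genes ranked by deposited ratio, UTF1 was 114, DPPA2 338, PODXL 491, SOX3 503, TERT 515, PRDM14 708 and SOX2 849. By ratio with a pseudocount of 0.1 FPKM, UTF1 ranked 30 of the 733 lower genes that reached 1 FPKM in either library, and 8 of the 305 that reached 5 FPKM. SOX2 ranked 631 of 733 and 260 of 305, near the 2-fold limit of the table. With this pseudocount and the limit of 1 FPKM, 35.4% of all listed genes were still at least 2-fold lower and 40.8% at least 2-fold higher, and all 7 genes were among the lower ones. The upper end of the interval was below 0.5 for all 7 genes, as it was for 57.5% of the lower genes. An interval narrows with more reads, and each of the 7 was above the median scramble level of lower genes, 2.91 FPKM. All lower genes had also passed the authors' 2-fold limit, so this contrast says little about the 7.

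**Figure D3:**
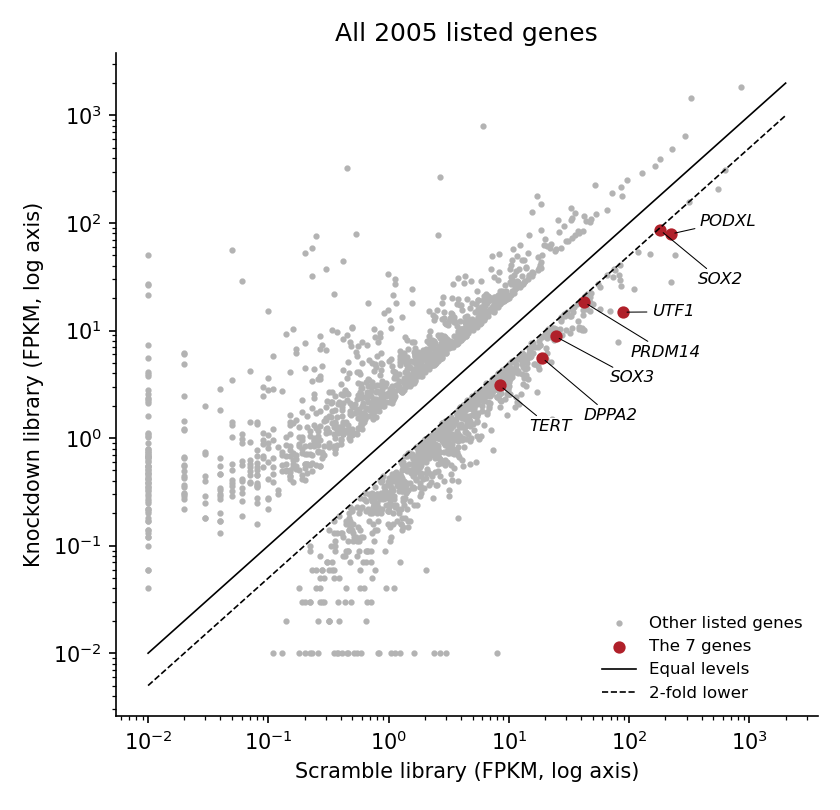
Level in the knockdown library against level in the scramble library (FPKM, log axes) for all 2005 listed genes (grey) and the 7 genes (red, named). The solid line marks equal levels and the dashed line 2-fold lower; the gap between the grey clouds is where genes under the authors' 2-fold limit would lie, and the red points sit in the right part of the lower cloud, from 8.39 to 221.98 FPKM in the scramble library.

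For each gene the 2 listed genes nearest to it in both levels were found, by distance on the log2 scale over the 2 libraries. SOX2 and PODXL were nearest to each other (distance 0.32). The next for SOX2 was HK1, a hexokinase (148.79 and 50.98 FPKM), and for PODXL PMAIP1, a pro-apoptotic p53 target (239.07 and 50.63 FPKM). Closest to UTF1 were the kinase gene PIM1 (69.41 and 15.12 FPKM, distance 0.35) and the metallothionein gene MT1X (57.52 and 15.89 FPKM, distance 0.63). PRDM14 lay closest to the tubulin gene TUBB4A (43.06 and 18.12 FPKM, distance 0.03) and the sodium pump subunit gene ATP1B2 (44.01 and 18.52 FPKM). SOX3 lay closest to FAM72C (24.82 and 9.43 FPKM), a member of a near-identical gene family and so uncertain, and to the Notch-related repressor gene HEY2 (23.41 and 9.35 FPKM). DPPA2 lay closest to HSPA2 (20.44 and 5.44 FPKM) and COQ8A (20.90 and 6.23 FPKM), and TERT to DDIT3 (8.28 and 2.98 FPKM) and CBX7 (8.54 and 3.27 FPKM). This likeness rests on 2 values per gene.

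A list of 40 core and primed pluripotency genes, drawn up with these results known, includes the 7. Of its other 33 genes, 4 have a row and all 4 were higher, where 5.86% of about 18489 genes tested are listed as higher. That no further gene of this list was lower can follow from how the 7 and the list were chosen. The head and anterior epiblast factor OTX2 was at 12.28 and 62.19 FPKM (5.06-fold higher), ZIC2 at 18.67 and 85.46 FPKM (4.58-fold), the neuropeptide gene GAL at 327.17 and 1454.97 FPKM (4.45-fold) and the ERK phosphatase gene DUSP6 at 7.85 and 16.70 FPKM. The remaining 29 genes have no row, and nothing is said here about their level.

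Relatives and partners of the 7 genes were looked up in further lists, some of which include genes of the 7. Of about 18489 genes tested, 4.98% are listed as lower and 5.86% as higher, the shares to hold beside each count below. Of 20 SOX family genes, 6 have a row, 4 lower and 2 higher, and SOX2 and SOX3 among the lower were chosen as such. Besides SOX2 and SOX3, the lower ones were SOX15 (20.75 and 9.59 FPKM), another SOX gene of pluripotent cells, and SOX9 (2.22 and 0.74 FPKM). The higher ones were the endoderm factor SOX17, listed at the lowest value of 0.01 FPKM, with no inferred read, and at 26.57 FPKM after knockdown, and its group F relative SOX18 (0.80 and 5.79 FPKM).

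Of 18 genes around PRDM14, 4 have a row. TFAP2C, which acts in human germ cells and naive cells, was lower beside PRDM14 at 14.76 and 6.95 FPKM. PRDM1 (BLIMP1), a PRDM relative of germ cells and endoderm, was 7.30-fold higher at 0.57 and 4.16 FPKM, and the DNA demethylation gene TET2 was at 0.41 and 1.21 FPKM. Of 20 telomerase and telomere genes, TERT and MYC have a row. MYC, which is known to activate TERT, was at 47.18 and 20.35 FPKM, or 43.1% of its scramble level. No other gene of the telomerase holoenzyme or of shelterin on that list is in the table. DPPA2 was the listed gene of 9 DPPA and cleavage-stage genes, and PODXL of 14 genes of its family and partners.

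Of 17 genes known as targets of SOX2 with POU5F1, 5 have a row, 3 lower and 2 higher. Besides SOX2 and UTF1, the lower one was SPP1 (osteopontin), at 27.79 and 9.08 FPKM. FGF4 was at 1.56 and 24.37 FPKM (15.6-fold higher) and NODAL at 22.42 and 64.39 FPKM (2.87-fold higher). SOX2 and UTF1 were chosen as lower, and the other 12 genes of the list have no row. Whether the level of SOX2 bears on that of the other genes was not tested.

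Of 25 naive-state genes, 13 have a row, of which 6 were lower and 7 higher. Over all 2005 listed genes, 921 were lower and 1084 higher. The median log2 ratio with the pseudocount was 1.53 for the naive genes, against 1.01 over all listed genes. Only genes at least 2-fold apart are listed, so such a median mainly follows which side holds more genes. These medians do not measure a shift. Among naive genes that reached 1 FPKM in either library, the lowest ratios besides TFCP2L1 were those of CD70 (1.51 and 0.26 FPKM, on 30 and 5 reads) and NLRP7 (2.44 and 0.73 FPKM). The highest were those of FGF4, GBX2 (0.47 and 4.05 FPKM) and PRDM1. The counts of naive genes include TFCP2L1, the targeted gene. At least 2-fold and at 1 FPKM or more, 6 were lower and 5 higher with the pseudocount of 0.1 FPKM, against 1 lower and 5 higher with a pseudocount of 1 FPKM. Among those that reached 5 FPKM, 1 was lower and 2 were higher.

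**Figure D4:**
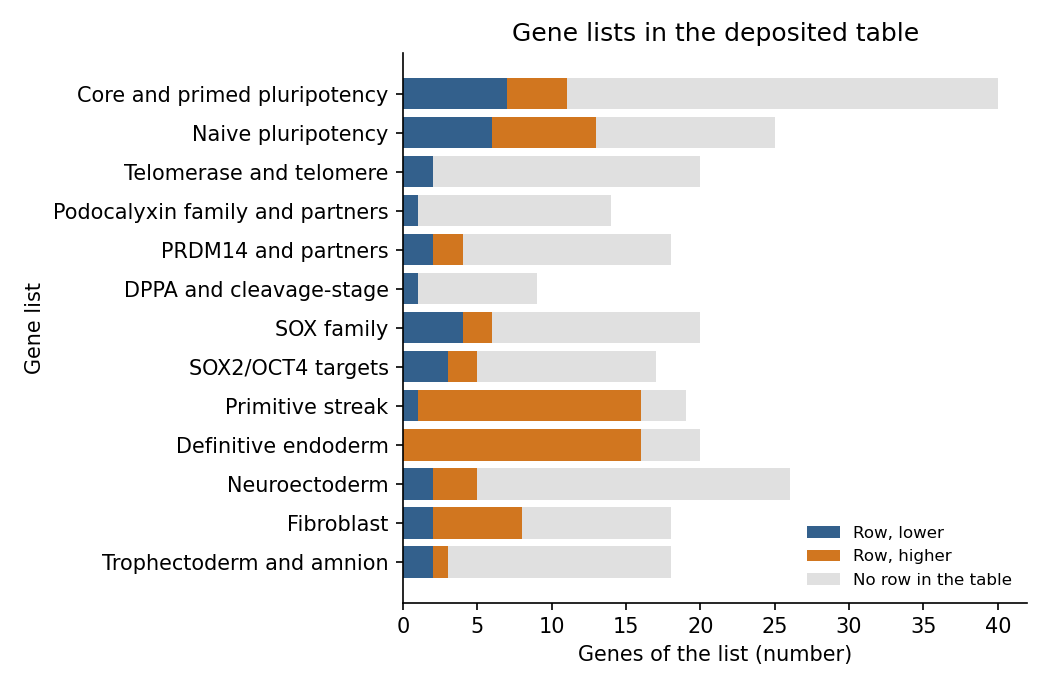
Genes of each list (number, bar length) that have a row in the deposited table and were lower (blue) or higher (orange) in the knockdown library, or that have no row (light grey). Lists share genes. The core and primed list has 7 lower of 40, which are the 7 genes chosen as lower, and 4 higher. The definitive endoderm list has 16 higher of 20. Of about 18489 genes tested, 4.98% are listed as lower and 5.86% as higher.

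Markers of other cell types differed between the same libraries, and their part in the levels of the 7 genes was not tested. Of all 2005 listed genes, 921 were lower and 1084 higher. Of 20 definitive endoderm genes, 16 have a row, all higher, and their summed level went from 11.7 to 1141.4 FPKM. SOX17 was at the lowest deposited value with the scramble virus, and none of the 16 was there with the knockdown virus. Of 19 primitive streak genes, 16 have a row, 15 higher and 1 lower, with sums of 44.6 and 1782.0 FPKM. CDX1 and EVX1 were at the lowest value with the scramble virus. These lists share EOMES, LHX1, CER1 and GSC.

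Neuroectoderm, where SOX2 and SOX3 are also expressed, had 5 of 26 genes with a row, 3 higher and 2 lower. The lower ones were SOX3, which was chosen as lower, and DLL1 (3.08 and 1.42 FPKM). At least 2-fold and at 1 FPKM or more with the pseudocount of 0.1 FPKM, 2 were lower and only 1 (NES) was higher. The summed level was 123.5 and 263.0 FPKM, most of it from the intermediate filament gene NES (95.92 and 251.82 FPKM). Of 18 fibroblast genes 8 have a row, 6 higher and 2 lower (sums 389.9 and 794.0 FPKM), with COL1A1 lower at 110.21 and 24.40 FPKM and TAGLN higher at 51.52 and 225.93 FPKM. Of 18 trophectoderm and amnion genes 3 have a row, 2 lower and 1 higher. KRT8 was higher at 293.29 and 639.70 FPKM. GABRP was lower at 2.53 and 0.37 FPKM, as was IGFBP3 at 2.04 and 0.97 FPKM.

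The table's own annotation terms joined few of the 7 genes. The term for stem cell population maintenance is on 5 listed genes, 4 of them lower, where 921 of all 2005 listed genes were lower. They are SOX2 and DPPA2, which were chosen as lower, KLF10 (37.78 and 12.24 FPKM), PIWIL2 (0.39 and 0.05 FPKM) and EOMES (0.25 and 76.01 FPKM). The term for positive regulation of stem cell proliferation is on DPPA2 and TERT alone, both chosen as lower. No term was on more than 4 of the 7, and the one on 4 (an intracellular membrane-bounded organelle, on SOX2, UTF1, DPPA2 and PRDM14) is on 16.8% of all listed genes.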

How the data were processed

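Per the labels' protocols, Trizol RNA of 1 sample per group was sequenced by BGISEQ-500. The submitters' processing notes name Bowtie 0.12.2 and hg19. The counter, quantifier, strand setting, test and filters were not given in the sources used here. The authors deposited levels that were read as FPKM from their scaling, log2 ratios without a pseudocount, p-values with false discovery rates, and gene lengths.

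Reads were inferred as pairs of whole numbers matching the FPKM ratio and, within 0.0002 in natural log, the p-value by the Audic-Claverie test (smaller tail, doubled). A pair was found for 66.8% of the 1924 genes whose p-value was not 0. DPPA2, SOX3 and PRDM14 had 1 each, and the reads of SOX2, UTF1, TERT and PODXL were estimated from the FPKM. On simulated data of 2005 genes, 99.7% had a pair, and the interval held the true ratio for 95.0% of 200 changed genes. The simulated p-values came from the same test that the inference inverts. The simulation therefore checks the calculation and cannot show that the deposited p-values were made in this way.

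The genes and lists were chosen with earlier results of these data known. Named genes are the 7 genes, TFCP2L1, the 2 nearest genes to each, and up to 3 lowest and 3 highest of each list at 1 FPKM or more. DUSP6, CDX1, EVX1 and the genes of the annotation terms were named after their values were seen. For the endoderm, streak and fibroblast lists not every such gene is named. Python 3.11.15, scipy 1.17.1 and Biopython 1.88 were used.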

Additional observations from a re-analysis of the deposited data

How the results depend on the processing

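The 7 log2 ratios kept their sign with a pseudocount of 1 FPKM, with no pseudocount and with inferred reads. With a pseudocount of 1 FPKM, TERT moved from -1.41 to -1.20, which is further than from its read ratio to either end of its counting interval. The other 20 values moved by less than that distance of their own gene. The 7 genes were counted as lower under each setting, and the core and primed list kept counts of 7 lower and 4 higher. Ranks by ratio fell to smaller numbers with that pseudocount (UTF1 from 30 to 5, SOX2 from 631 to 310), which shrinks the ratios of genes at low levels. The counts of the naive list under these settings stand beside its result. No paired analysis was possible because each group had 1 library. With 1 library, none could be left out. The smallest count behind any of the 7 ratios was 166 reads (DPPA2, knockdown).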
